A study of Mus musculus with 6 samples.

Results

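The genes of the major histocompatibility complex (MHC) and of antigen processing were followed in inguinal (subcutaneous) fat of mice that had regained weight. A probe was a member if it was not a control and its gene name started with H2-, the mouse MHC prefix, or was Cd74, Ciita, B2m, Tap1, Tap2, Tapbp, Tapbpl, Psmb8, Psmb9, Psme1, Psme2, Nlrc5, Cd1d1 or Mr1. The rule uses names only, and it took 55 of 34844 gene names, with 74 of 55681 probes. Of these, 47 genes passed the filter on dim probes, as did 26177 genes on the whole array. Class I took 41 gene names (34 passed), made up of 29 heavy chains (22 passed), 10 supporting proteins (10 passed) and the MHC-like Cd1d1 and Mr1. Class II took 12 gene names (11 passed), 5 of them chains (4 passed) and 7 of them loading and control proteins (7 passed). H2-Ke2 and H2-Ke6, known today as Pfdn6 and Hsd17b8, lie in the complex but are not MHC molecules, and stand in neither class.

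All animals were male C57BL/6J mice, and both groups were on a high-fat diet, 60% of energy as fat, at the end. The 3 samples titled DIO_CR_WR came from mice that met this diet at 2 months of age for 1 month, were then restricted in calories for about 3 weeks until they weighed what chow-fed mice of their age weighed, and then regained weight on free access to the fatty diet. The 3 samples titled DIO came from mice fed chow until that point and the fatty diet in the last period. The protocol text names these groups differently, DIO for the regain mice and CTR for the others, and the sample titles are followed here. Ages on the labels are 9, 10 and 11 months for DIO_CR_WR and 6, 7 and 8 months for DIO. They step by 1 month from each listed sample to the next, a pattern that leaves their accuracy in doubt. Taken at face value, age and group cannot be told apart. No label says whether a sample is 1 mouse or a pool, so each p-value measures the spread between these samples, which may be technical. The comparison asks what earlier obesity and weight loss leave behind in fat once both groups are on the same diet.

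Class I molecules pair a heavy chain with beta-2 microglobulin and show peptides from inside the cell to CD8 T cells and NK cells. The proteasome cuts these peptides, the TAP transporter carries them into the endoplasmic reticulum and tapasin helps to load them. Class II molecules show peptides from endosomes to CD4 T cells and are made by dendritic cells, B cells and macrophages. In fat, adipocytes also carry class I, class II and CD1d molecules.

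Probe identity matters in this family, because heavy chains are near copies of each other. All arrays carried probes of 60 bases, and 8 of the 40 heavy chain probes shared a run of at least 20 bases with a probe of another gene name. Among the supporting proteins 0 of 14 probes did, and 1 of 15 class II probes. The longest run between members joined H2-K1, a classical heavy chain, and H2-T23, which encodes Qa-1, a ligand of NK receptors. It spans 29 bases and stands in capitals in both probes, which lie at chr17:34133984-34134043 (minus strand) and chr17:36167338-36167574 (minus strand) on build mm9 in the array files. The listed span of the second is longer than the probe.
H2-K1: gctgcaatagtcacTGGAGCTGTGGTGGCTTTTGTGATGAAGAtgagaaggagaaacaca
H2-T23: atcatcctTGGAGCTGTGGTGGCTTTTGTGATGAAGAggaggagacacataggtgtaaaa
The H2-T3 probe (chr17:36322516-36322575, minus strand, mm9) and a probe of H2-Q10 have a run of 22 bases in common, shown because H2-T3 is among the members described below.
H2-T3, bases 24 to 45: TTGTGGAGGAAATAAATGGCAG
A probe of H2-K2 and the probe of H2-Q7 shared 28 bases. Values of these genes may therefore include signal of their relatives, and how much was not tested. Probes were compared only with other probes, not with transcripts, so the remaining heavy chain probes were not shown to be specific to their gene.

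The genome position of most members is common to them. In the files 43 member genes with 56 probes lay on mouse chromosome 17, within 3.55 Mb, while the other mapped members (B2m, Cd1d1, Ciita, Mr1, Nlrc5, Tapbpl, Psme1, Psme2 and Cd74) lay on other chromosomes. For 5 probes the files give no position. Exons and UTRs under the probes were not analysed here.

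Detection differed between the groups over the whole array. Between 52.9% and 66.7% of the non-control spots were well above background on DIO_CR_WR arrays and between 69.1% and 79.7% on DIO arrays, with 0 saturated spots on each. Of the 55 members, 44 to 47 were well above background on each DIO_CR_WR array and 46 to 51 on each DIO array. The 3 DIO_CR_WR arrays and DIO replicate 1 shared a slide, and DIO replicates 2 and 3 were on another. Without DIO replicate 1 the groups are on different slides, and group and slide cannot be told apart. The small number of arrays, 3 a group, sets the precision. Signals are given below on 1 scale, with each array's 75th percentile set to the mean of all 6, and fold changes are log2 values of DIO_CR_WR minus DIO with their standard error (SE). In whole tissue, fewer cells of a type and less RNA in each cell cannot be told apart.

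No member passed limma's test across all genes at an adjusted p of 0.05, as 0 of 26177 genes did (0%), and the smallest adjusted p among members was 0.131. At an unadjusted limma p under 0.05 the share over all genes was 27.0%, with 5.42% higher and 21.6% lower in DIO_CR_WR. The class I count was 7 of 34 (2 higher and 5 lower) and the class II count was 0 of 11. Both counts lie below the share of all genes. The groups did not overlap for 33.8% of all genes (7.25% higher and 26.5% lower), for 10 of 34 class I members (2 higher and 8 lower) and for 1 of 11 class II members (lower).

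The median log2 fold change was −0.11 for class I and 0.13 for class II, against −0.20 for all genes tested. Relative to all genes the medians were therefore 0.09 and 0.33 higher. Most members lay near 0: 26 of 34 class I and 9 of 11 class II members had an absolute log2 fold change under 0.5, as did 64.3% of all genes. When arrays were scaled to spike-in probes the all-gene median moved to 0.30, which moves every fold change below by the same step, and the members' medians relative to all genes stayed at 0.09 and 0.33. At that scaling 8 class I members (8 higher, 0 lower) and 6 class II members (6 higher, 0 lower) had an unadjusted p under 0.05, against 24.0% of all genes (5509 higher and 771 lower).

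**Figure D1:**
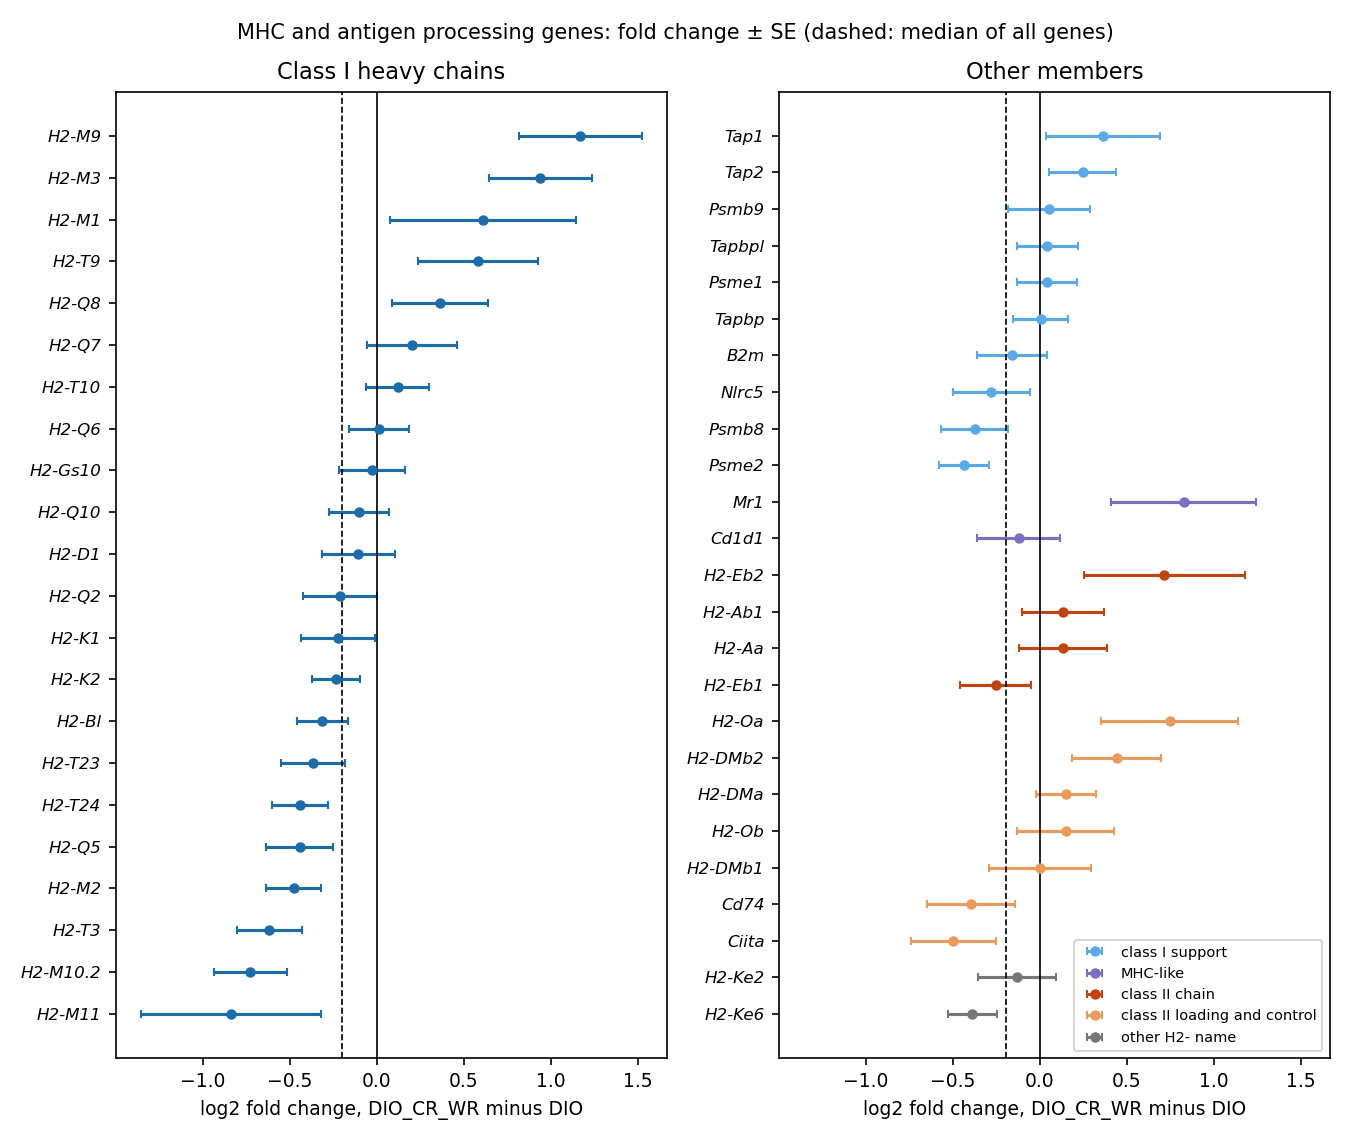
Log2 fold change of DIO_CR_WR minus DIO for the 47 measured members (points) with SE (bars), class I heavy chains on the left and the other members on the right, coloured by role. The dashed line marks the median of all genes (−0.20); heavy chains run from −0.84 (H2-M11) to 1.17 (H2-M9), and class II members from −0.50 (Ciita) to 0.75 (H2-Oa).

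Classical class I heavy chains were bright on every array and overlapped between the groups. H2-K1 had signals of 60642, 84420 and 82402 on DIO_CR_WR arrays and 74451, 86231 and 104469 on DIO arrays. H2-D1, the other classical heavy chain, had 82356, 124492 and 79945 on DIO_CR_WR arrays against 102033, 97787 and 102586 on DIO arrays. For both genes the groups interleaved, with DIO_CR_WR replicate 2 the highest of its group. The log2 fold changes were −0.22 ± 0.21 SE for H2-K1 and −0.11 ± 0.21 SE for H2-D1, less than the spread between arrays, and both turned positive (0.28 and 0.39) with spike-in scaling.

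Among the nonclassical heavy chains, 2 were higher in every DIO_CR_WR array than in any DIO array. H2-M3, which presents peptides that start with N-formylmethionine, as bacterial and mitochondrial ones do, had 9078, 9035 and 8820 on DIO_CR_WR arrays and 6950, 4765 and 3090 on DIO arrays. The DIO_CR_WR arrays were almost alike while the DIO arrays were spread widely, with DIO replicate 3 lowest. This was 1.92-fold higher (log2 0.94 ± 0.30 SE, adjusted p = 0.135). The log2 fold change was 0.64 without DIO replicate 3, 1.23 (adjusted p = 0.0314) without DIO replicate 1 and 0.37 with the slide as a block.

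H2-M9 had 2438, 2803 and 1976 on DIO_CR_WR arrays and 1481, 1284 and 623 on DIO arrays. It belongs to the H2-M genes that are known in mice from sensory neurons of the vomeronasal organ. With all 6 arrays it had the largest positive fold change of the 47 measured members, 2.25-fold (log2 1.17 ± 0.35 SE, adjusted p = 0.132), with no overlap. A second, dimmer H2-M9 probe had 788, 621 and 730 on DIO_CR_WR arrays and 479, 416 and 334 on DIO arrays, also without overlap, with a log2 fold change of 0.81 ± 0.20 SE. The first probe's fold change was 0.79 without DIO replicate 3 and 0.68 with the slide as a block. Its sequence (chr17:36777385-36777444, minus strand, mm9) is shown because it is the member with the largest positive change.
H2-M9: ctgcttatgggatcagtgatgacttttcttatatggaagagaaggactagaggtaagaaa

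A further 4 heavy chains (H2-T3, H2-M10.2, H2-T24 and, by its bright probe, H2-M2) were lower at an unadjusted p under 0.05, each without overlap. H2-T3, which encodes the thymus leukemia antigen of gut epithelium, had 6089, 8503 and 8441 on DIO_CR_WR arrays and 11515, 11041 and 12428 on DIO arrays. The DIO arrays lay close together, and DIO replicate 1, on the slide of the DIO_CR_WR arrays, sat among them. Its log2 fold change was −0.62 ± 0.19 SE (adjusted p = 0.132), and −0.60 with the slide as a block. With spike-in scaling it was −0.12.

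H2-M10.2, of the same vomeronasal group as H2-M9, was close to background, with 95, 102 and 147 on DIO_CR_WR arrays and 190, 200 and 170 on DIO arrays. It was well above background on 1 of 3 DIO_CR_WR arrays and 3 of 3 DIO arrays, so its log2 fold change of −0.73 ± 0.21 SE (adjusted p = 0.131) compares a measured level with one mostly at the limit of detection. H2-T24, a nonclassical heavy chain, had 6537, 7845 and 7558 on DIO_CR_WR arrays and 8967, 9902 and 10927 on DIO arrays. Every DIO_CR_WR array was below every DIO array, with a log2 fold change of −0.44 ± 0.16 SE, or 0.06 with spike-in scaling.

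H2-M2 gave opposite answers by probe. Its bright probe had 54624, 49611 and 53639 on DIO_CR_WR arrays and 65920, 71096 and 83580 on DIO arrays, a log2 fold change of −0.48 ± 0.16 SE. Its dim probe had 1172, 1488 and 1143 on DIO_CR_WR arrays and 186, 251 and 844 on DIO arrays, a log2 fold change of 1.89 ± 0.55 SE. Both probes separate the groups fully, in opposite directions, so no direction is given for the gene. The bright probe lies at chr17:37618259-37618439 and the dim one at chr17:37618042-37618101, both on the minus strand of mm9, and the first 30 bases of the dim one are shown beside the bright one.
H2-M2 bright probe: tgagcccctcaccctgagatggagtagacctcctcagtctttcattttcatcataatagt
H2-M2 dim probe, bases 1 to 30: gtggcccattattcccaaagacacaattct

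**Figure D2:**
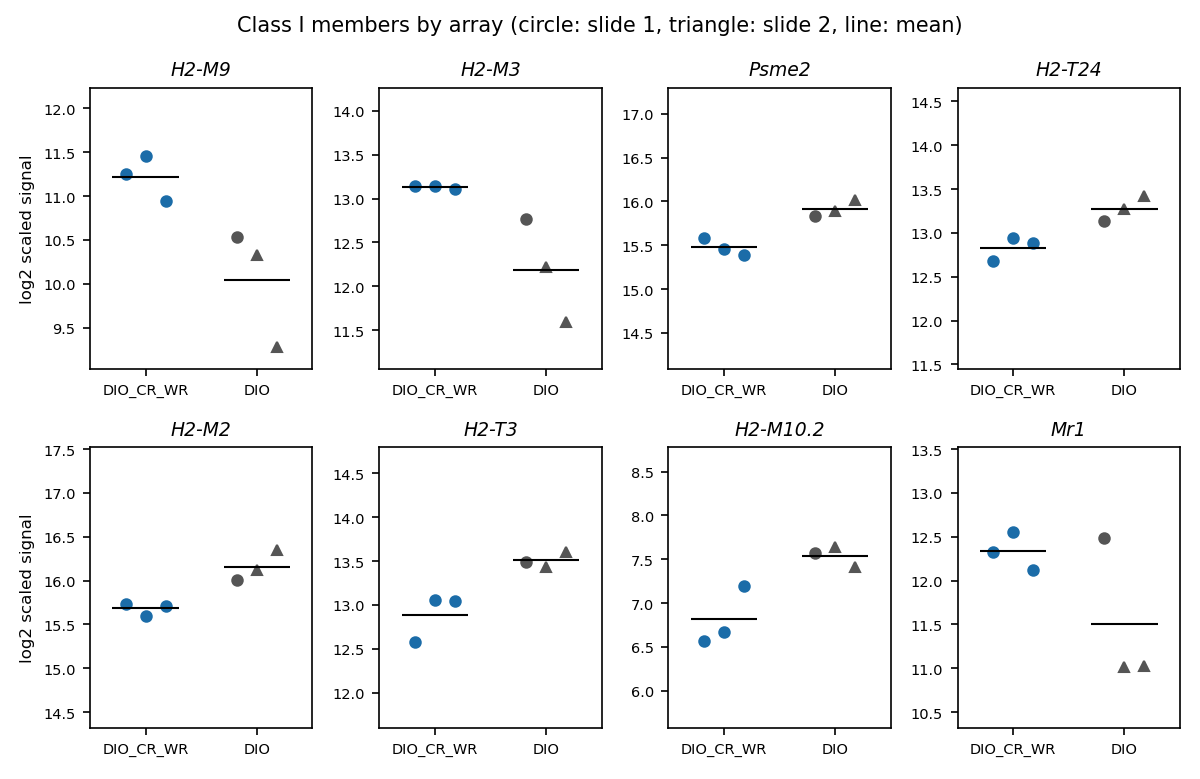
Log2 scaled signal of the 7 class I members with an unadjusted p under 0.05, and of Mr1, on each array, DIO_CR_WR on the left and DIO on the right of each panel; circles are slide 1, triangles slide 2, and lines group means. H2-M9 and H2-M3 are higher in all 3 DIO_CR_WR arrays, the other 5 of the 7 are lower in all 3 (H2-M2 by its bright probe), and Mr1 of DIO replicate 1 (circle) lies with the DIO_CR_WR arrays.

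The remaining 16 measured heavy chains had log2 fold changes between −0.84 (H2-M11) and 0.61 (H2-M1). H2-Bl and H2-K2 did not overlap, both lower (−0.31 ± 0.15 SE and −0.23 ± 0.14 SE). The Q genes, which include the H2-Q7 gene of Qa-2, ran from −0.44 (H2-Q5) to 0.36 (H2-Q8), and H2-T23 stood at −0.37 ± 0.18 SE. H2-M1 was near background (well above it on 1 of 3 DIO_CR_WR and 2 of 3 DIO arrays) and H2-M11 was above it on 2 of 3 DIO_CR_WR and 3 of 3 DIO arrays. Their SE of 0.54 and 0.52 is too wide to read a direction. The 7 heavy chains that the filter left out were H2-M10.1, H2-M10.3, H2-M10.4, H2-M10.6, H2-M5, H2-Q1 and H2-T18, with no probe well above background on more than 2 arrays.

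Of the 10 proteins that support class I, 1 was lower and 0 were higher at an unadjusted p under 0.05. B2m, the light chain of every class I molecule, had 108855, 75021 and 111091 on DIO_CR_WR arrays and 114080, 102525 and 108439 on DIO arrays. Only DIO_CR_WR replicate 2 stood apart, and the log2 fold change was −0.16 ± 0.20 SE (0.34 with spike-in scaling). Nlrc5, the regulator that drives class I genes, had 8536, 9633 and 7579 on DIO_CR_WR arrays against 8826, 9199 and 13727 on DIO arrays, overlapping, with −0.28 ± 0.22 SE.

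Psme2, the beta subunit of the proteasome activator PA28, had 48894, 45080 and 42808 on DIO_CR_WR arrays and 58148, 60650 and 66350 on DIO arrays. The groups did not overlap, and the log2 fold change was −0.44 ± 0.15 SE (adjusted p = 0.14, 0.06 with spike-in scaling). A second Psme2 probe gave −0.32 ± 0.23 SE and another, dimmer one 0.31 ± 0.23 SE, so the probes disagree. The dimmer one has a listed span of 219297 bases, far longer than the probe, and whether it measures Psme2 was not tested. The alpha subunit Psme1 stood at 0.04 ± 0.17 SE.

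The immunoproteasome, whose subunits replace those of the standard proteasome in immune cells and under interferon, was measured by Psmb8 and Psmb9. Psmb8 had 21345, 20740 and 19137 on DIO_CR_WR arrays and 23889, 23171 and 33391 on DIO arrays, with no overlap and −0.38 ± 0.19 SE (0.12 with spike-in scaling). Psmb9 had 25029, 22686 and 16539 on DIO_CR_WR arrays and 21558, 16305 and 24007 on DIO arrays, interleaved, with 0.05 ± 0.23 SE. The difference between the subunits was not tested.

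Tap1, 1 chain of the peptide transporter, had 2945, 2806 and 2567 on DIO_CR_WR arrays and 3373, 1371 and 2166 on DIO arrays. DIO replicate 1 was the highest of all 6 arrays, and the log2 fold change of 0.36 ± 0.33 SE became −0.29 with the slide as a block. Its partner Tap2 stood at 0.25 ± 0.19 SE, tapasin (Tapbp) at 0.00 ± 0.16 SE and its relative Tapbpl at 0.04 ± 0.17 SE.

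The MHC-like members present other ligands than peptides. Mr1, which shows vitamin B metabolites to MAIT cells, had 5156, 5994 and 4453 on DIO_CR_WR arrays and 5728, 2070 and 2086 on DIO arrays. DIO replicate 1 lay within the DIO_CR_WR range, while the other DIO arrays, both on the other slide, were far below. The log2 fold change was 0.83 ± 0.42 SE (adjusted p = 0.246). It was 1.31 (adjusted p = 0.0254) without DIO replicate 1, where the groups are on different slides, and −0.15 with the slide as a block. Cd1d1, which shows lipids to NKT cells, had 52635, 77133 and 51594 on DIO_CR_WR arrays and 53328, 63778 and 79418 on DIO arrays, overlapping, with −0.12 ± 0.24 SE (0.38 with spike-in scaling).

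Class II genes share promoter elements, and the promoters are shown because class II genes are known to be switched on together. In RefSeq promoters (GRCm38.p6, 250 bases before to 50 after each start site) 36 of the 55 members had an entry. The letters GATTGG on either strand, the core of the Y box of class II promoters, were in 8 of 8 class II members with an entry, in 16 of 27 class I members and in 16.1% of all 32851 promoters. An interferon response element, read as a pair of GAAA on 1 strand with 2 bases between, was in 0 class II and 3 class I members (B2m, H2-T23 and Psme1) and in 3.44% of all promoters. The letters GGGGANTCC, a kappa B site, were in 0 class II and 5 class I members (H2-K1, H2-D1, H2-Q6, H2-Q7 and H2-Q10) and in 1.19%. A match is a description of the letters only. H2-Eb2 and H2-DMa hold the core at −101 and −199 bases from the start site, and their windows are not shown. In the windows shown it lies between −91 and −44. Windows of 56 bases around the core, which stands in capitals, read as follows on the gene's own strand.
H2-Aa (chr17:34287857-34287912, minus): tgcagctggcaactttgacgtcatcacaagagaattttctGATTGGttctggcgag
H2-Eb1 (chr17:34305767-34305822, plus): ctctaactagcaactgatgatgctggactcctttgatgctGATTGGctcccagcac
H2-DMb1 (chr17:34153089-34153144, plus): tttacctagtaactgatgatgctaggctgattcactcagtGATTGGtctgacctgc
H2-DMb2 (chr17:34145118-34145173, plus): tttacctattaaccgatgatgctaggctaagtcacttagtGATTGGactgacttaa
H2-Oa (chr17:34092295-34092350, plus): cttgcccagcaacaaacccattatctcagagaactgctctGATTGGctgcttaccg
H2-Ob (chr17:34238807-34238862, plus): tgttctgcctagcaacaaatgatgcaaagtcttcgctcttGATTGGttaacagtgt

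The class II chains overlapped between the groups. H2-Aa, the alpha chain of the I-A molecule, had 49759, 51485 and 80241 on DIO_CR_WR arrays and 47635, 48893 and 67251 on DIO arrays. H2-Ab1, its beta chain, had 61394, 44899 and 72730 on DIO_CR_WR arrays and 45370, 52935 and 63540 on DIO arrays. In both genes replicate 3 was the highest array of each group, and both had a log2 fold change of 0.13 (SE 0.25 for H2-Aa and 0.24 for H2-Ab1).

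H2-Eb1, an E beta chain, had 45820, 42603 and 40777 on DIO_CR_WR arrays and 42303, 48112 and 66280 on DIO arrays. The DIO_CR_WR arrays were tight, DIO replicate 3 was the highest, and the log2 fold change was −0.25 ± 0.20 SE (0.25 with spike-in scaling). H2-Eb2, a second E beta gene, stood at 0.71 ± 0.46 SE, which rested on DIO_CR_WR replicate 1, without which it was 0.18. That array read 412, against 129 and 146 on the other DIO_CR_WR arrays and 122, 96 and 150 on DIO arrays, and DIO_CR_WR replicate 2 was the array where the probe was not well above background.

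The E alpha probe H2-Ea-ps was well above background on 0 arrays of each group. The gene is not expressed in C57BL/6 mice, which carry a deletion in its promoter, and its probe (chr17:34481469-34481528, minus strand, mm9) is shown as the member that should be silent in this strain.
H2-Ea-ps: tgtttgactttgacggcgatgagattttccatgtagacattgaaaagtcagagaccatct

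Cd74, the invariant chain that guides class II molecules to the endosome, had 57039, 59244 and 61411 on DIO_CR_WR arrays and 55024, 81932 and 105301 on DIO arrays. DIO replicate 1 was the lowest of all arrays and the other DIO arrays the highest, so the groups overlapped. The log2 fold change was −0.40 ± 0.25 SE (adjusted p = 0.336), −0.65 without DIO replicate 1, 0.11 with the slide as a block and 0.10 with spike-in scaling.

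Ciita, the regulator that switches class II genes on, was the 1 class II member whose groups did not overlap. It had 20838, 19257 and 24309 on DIO_CR_WR arrays and 25917, 42261 and 25070 on DIO arrays. DIO replicate 2 stood far above the rest, and the log2 fold change was −0.50 ± 0.25 SE (adjusted p = 0.236), −0.25 without DIO replicate 2 and 0.00 with spike-in scaling. Its only probe (chr16:10526568-10526627, plus strand, mm9) shares a run of at least 20 bases with probes of 3 other gene names (Cbln2, Odz1 and Prg4). The probe also holds 39 A and 8 copies of the letters AAAAC. It is the 1 non-control probe with at least 8 copies. Whether it measures Ciita was not tested, so the lack of overlap is given for the probe only.

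H2-DM frees the peptide groove of class II molecules for new peptides. H2-DMa had 18257, 20169 and 16933 on DIO_CR_WR arrays and 14109, 18296 and 17663 on DIO arrays, and H2-DMb1 had 12114, 14104 and 14170 on DIO_CR_WR arrays against 9384, 12709 and 20281 on DIO arrays. Both overlapped, DIO replicate 1 was the lowest array for each, and the log2 fold changes were 0.15 ± 0.17 SE and 0.00 ± 0.29 SE. H2-DMb2, the second beta gene, stood at 0.44 ± 0.26 SE, or 0.19 without DIO_CR_WR replicate 1.

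H2-DO, made of H2-Oa and H2-Ob, holds H2-DM back, mainly in B cells. H2-Oa had 959, 577 and 648 on DIO_CR_WR arrays and 273, 382 and 728 on DIO arrays. DIO replicate 3 lay within the DIO_CR_WR range, and the log2 fold change was 0.75 ± 0.39 SE (adjusted p = 0.261). H2-Ob had 1199, 1533 and 1037 on DIO_CR_WR arrays and 803, 1155 and 1513 on DIO arrays, overlapping, with 0.15 ± 0.28 SE. A second, dimmer H2-Ob probe gave 0.77 ± 0.47 SE.

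**Figure D3:**
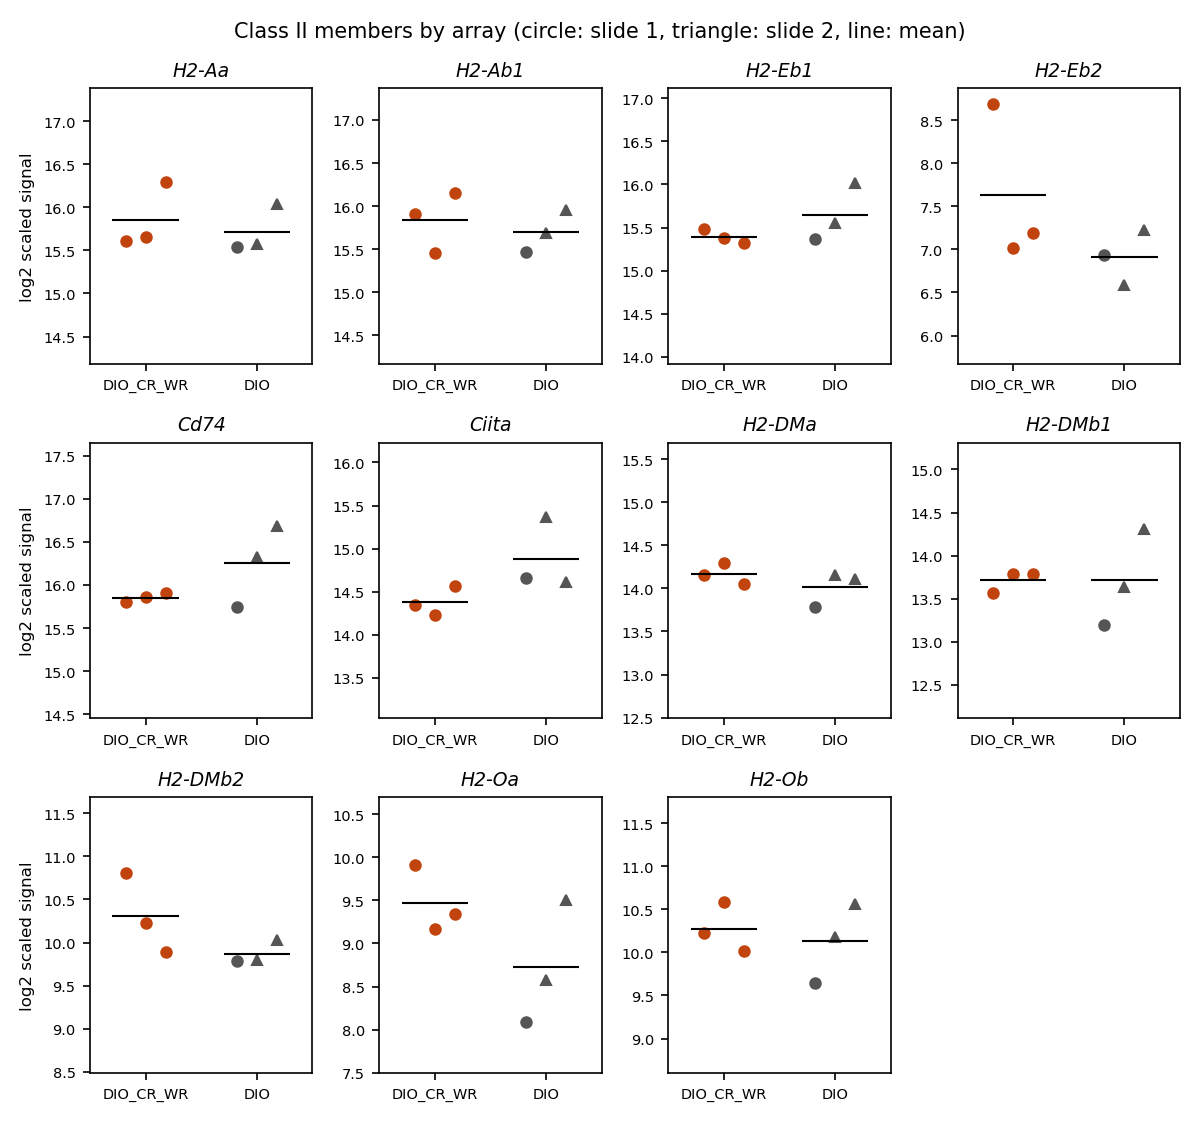
Log2 scaled signal of the 11 measured class II members on each array, DIO_CR_WR on the left and DIO on the right of each panel, each panel spanning the same log2 range; circles are slide 1, triangles slide 2, and lines group means. The groups overlap in 10 of the 11 panels, and DIO replicate 1 (grey circle) is the lowest DIO array for most members.

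The slide of the arrays moved with these differences. With the slide as a block, DIO replicate 1 is what the 3 DIO_CR_WR arrays of its slide are set against, and the all-gene median was −0.10. The class II median was then 0.38, or 0.48 above all genes, and H2-Oa stood at 1.38 ± 0.46 SE (adjusted p = 0.455). The class I median was −0.08, or 0.02 above all genes, and 0 of 34 class I members had an unadjusted p under 0.05, against 10.5% of all genes. Mr1, H2-T9 and Tap1 turned from 0.83, 0.58 and 0.36 to −0.15, −0.20 and −0.29, since DIO replicate 1 exceeded the mean of the other DIO arrays by 1.46, 1.17 and 0.97 on the log2 scale.

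Leaving out DIO replicate 1 changed what was called. Without DIO replicate 1 limma called 4057 genes at an adjusted p of 0.05, 15.5% of those tested. Of the 47 members 3 were among them, a smaller share (H2-M3, H2-T9 and Mr1). Each group then lies on its own slide, so these calls cannot be told apart from a difference between slides. H2-T9, a nonclassical heavy chain, had 12041, 14746 and 12352 on DIO_CR_WR arrays and 14875, 6217 and 7042 on DIO arrays, where DIO replicate 1 was the highest of all 6. Without that array its log2 fold change was 0.97 (adjusted p = 0.0296). The class I count at an unadjusted p under 0.05 was 11 of 34 without DIO replicate 1, where the share over all genes was 37.4%, and 4 of 34 without DIO replicate 2, where it was 12.2%. The class I count thus moved with the count over the whole array.

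**Figure D4:**
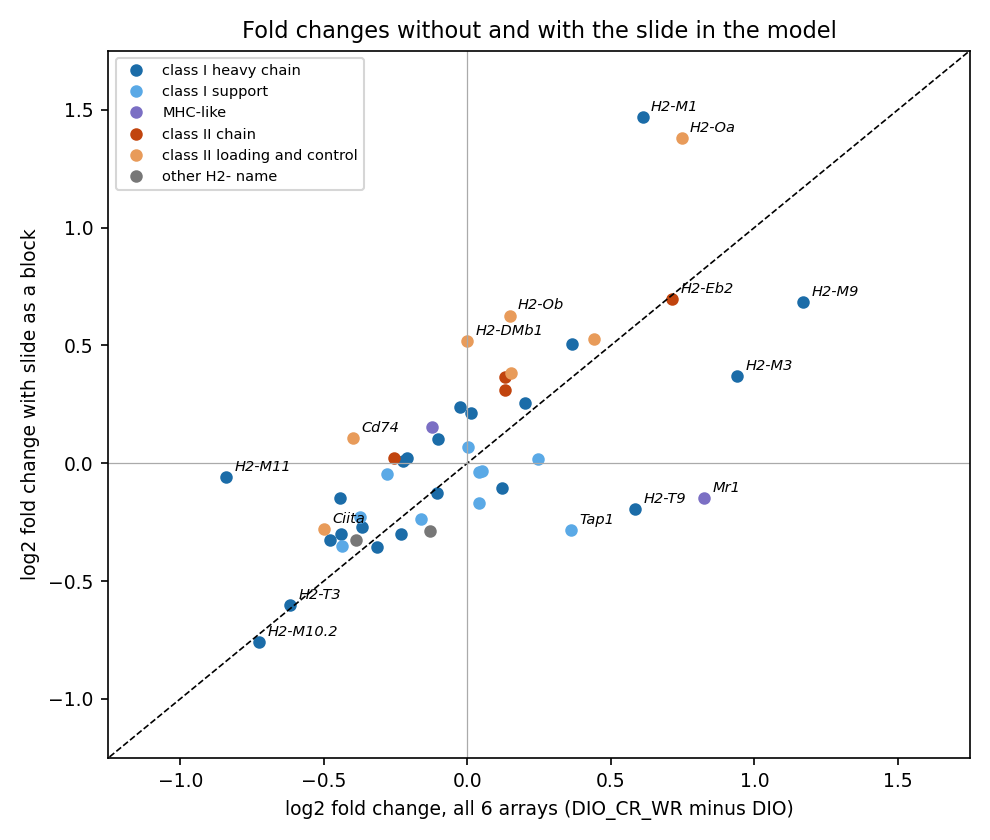
Log2 fold change of DIO_CR_WR minus DIO of the 47 measured members from all 6 arrays (x axis) against the same with the slide as a block (y axis), coloured by role; the dashed line marks equal values. Class II members lie on or above the line apart from H2-Eb2, just below it, while Mr1, H2-T9, Tap1, H2-M3 and H2-M9 lie well below it.

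Probes of 1 gene could be compared for the 12 members with several kept probes. In 9 of the 12 the probes had the same sign, among them H2-M9 (0.81 and 1.17), H2-K1 (−0.31 and −0.22) and H2-Ab1 (0.08 and 0.13). The H2-Ab1 probes share a run of 41 bases and the H2-K2 probes a run of 26, so their agreement is not independent. In H2-M2, Psme2 and Nlrc5 the signs differed.

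**Figure D5:**
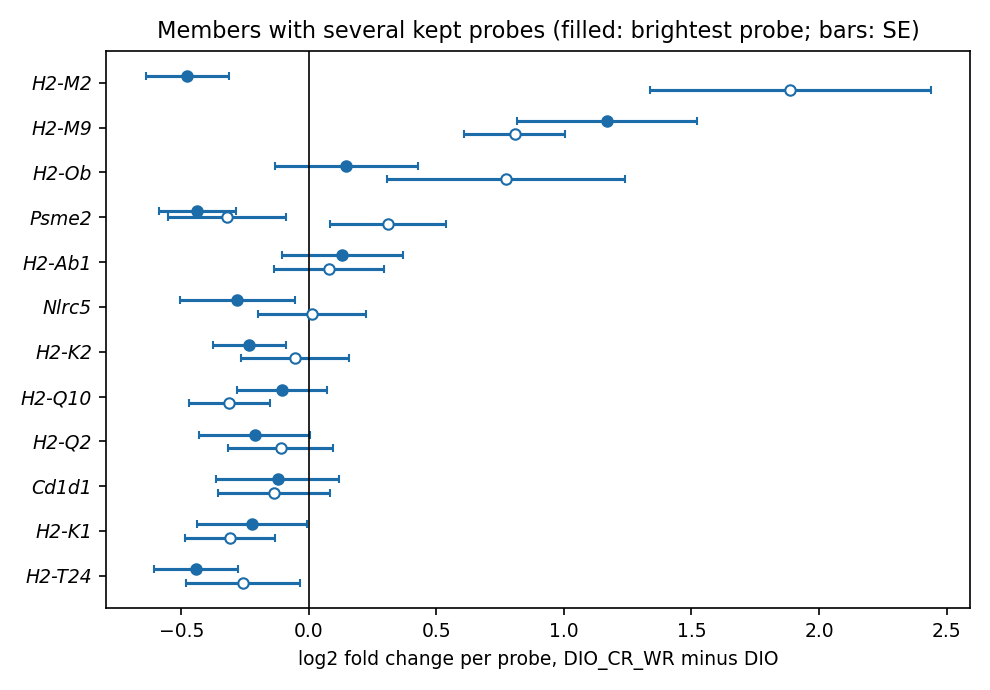
Log2 fold change of DIO_CR_WR minus DIO for each kept probe of the 12 members with several probes, with SE bars; filled points are the brightest probe, which stands for the gene elsewhere. The probes of H2-M2 lie at −0.48 and 1.89, on either side of 0.

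The genes named for the complex without being MHC molecules also had values. H2-Ke6 (Hsd17b8, a steroid and fatty acid dehydrogenase) had 35410, 39399 and 34363 on DIO_CR_WR arrays and 45513, 47257 and 49907 on DIO arrays. The groups did not overlap, with −0.39 ± 0.14 SE (0.11 with spike-in scaling). H2-Ke2 (Pfdn6, a prefoldin subunit) overlapped, with −0.13 ± 0.23 SE.

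Other genes of the same pathways were counted from chosen lists. Over all genes the share at an unadjusted p under 0.05 was 5.42% higher and 21.6% lower. Of 14 measured class I pathway genes outside the rule, an unadjusted p under 0.05 was reached by 0 higher and 2 lower ones, the standard proteasome subunits Psmb5 (−0.65 ± 0.21 SE) and Psmb7 (−0.48 ± 0.17 SE), and the list's median was −0.09. The class II pathway list had 2 higher and 1 lower of 12, with a median of 0.16. The higher ones were the costimulator Cd80 (0.85 ± 0.23 SE) and the protease cathepsin H, Ctsh (0.46 ± 0.14 SE). The lower one was March1, a ubiquitin ligase that takes class II molecules off the cell surface, at −0.93 ± 0.30 SE. It had 92758, 107333 and 91933 on DIO_CR_WR arrays and 116704, 239819 and 226188 on DIO arrays, where DIO replicate 1, on the slide of the DIO_CR_WR arrays, lay nearest to them. On DIO replicates 2 and 3 it was brighter than the adipocyte markers Adipoq (154998 and 163972) and Fabp4 (186603 and 187907). Whether its probe measures March1 was not tested. Ctsh had 25430, 27054 and 27242 on DIO_CR_WR arrays and 19515, 18677 and 19798 on DIO arrays, a narrow spread in both groups.

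Interferon gamma is the main inducer of both classes. Its gene Ifng had 268, 379 and 380 on DIO_CR_WR arrays and 73, 72 and 130 on DIO arrays, dim but without overlap, with a log2 fold change of 1.93 ± 0.29 SE. It was well above background on 2 of 3 DIO_CR_WR and 3 of 3 DIO arrays. Of the 12 genes of its pathway 2 were higher at an unadjusted p under 0.05, Ifng and the adhesion molecule Icam1 (0.67 ± 0.14 SE), and 1 was lower, the receptor chain Ifngr2 (−0.39 ± 0.15 SE). The list's median was 0.21, and its share at that p was 25%, against 27.0% of all genes (5.42% higher and 21.6% lower).

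Markers of cell types that make class II were counted too, and their part in the class II values was not tested. Over all genes 5.42% were higher and 21.6% lower at the same unadjusted p. At an unadjusted p under 0.05 the dendritic cell list had 5 higher and 1 lower of 8, with summed signals of 67078 to 69837 on DIO_CR_WR arrays and 71179 to 88978 on DIO arrays. The lower one was Siglech, a marker of plasmacytoid dendritic cells, with 47402, 43313 and 48091 on DIO_CR_WR arrays and 60341, 75926 and 64075 on DIO arrays (−0.52 ± 0.16 SE). It makes up most of the sum on each array, so the sum runs against the count. Whether its probe measures Siglech was not tested. Among the higher ones Cd209a stood at 0.72 ± 0.16 SE and Itgax at 1.14 ± 0.33 SE. Xcr1 (−0.31 ± 0.39 SE) and Zbtb46 (−0.18 ± 0.21 SE) were below 0 without reaching that p, and the list's median was 0.70. Of 8 macrophage markers 1 was higher and 0 lower, with sums of 235460 to 248871 and 176496 to 293109 in the same order. Mrc1 stood at 0.67 ± 0.15 SE and Fcgr1 at 0.80 ± 0.34 SE. The macrophage list ran from −0.22 (Cd68) to 0.80 (Fcgr1), with a median of 0.24. Of 6 B cell markers 2 were higher and 1 lower, with sums of 10356 to 11932 on DIO_CR_WR arrays and 12278 to 16446 on DIO arrays, Fcrla standing at 1.63 ± 0.41 SE and Cr2 at −0.83 ± 0.21 SE. Cr2, which is also on the lymph node stroma list, is the brightest of the 6 and had 5546, 7023 and 8476 on DIO_CR_WR arrays and 10655, 12681 and 13733 on DIO arrays. The other higher marker was Cd79b, a chain of the B cell receptor complex, with 4196, 2298 and 1850 on DIO_CR_WR arrays and 885, 608 and 1417 on DIO arrays, so the sum runs against it too. The B cell marker Cd79a did not pass the filter on dim probes.

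Other cell types, here and in the next paragraph, were counted against the same share over all genes (5.42% higher and 21.6% lower). Of 8 T cell markers 5 were higher and 0 lower (sums of 9091 to 16796 on DIO_CR_WR arrays and 5262 to 10390 on DIO arrays). Cd3g stood at 1.61 ± 0.38 SE and Cd3d at 1.69 ± 0.46 SE. The T cell list ran from −0.10 (Cd4) to 1.71 (Cd8b1), with a median of 1.31. Of 6 NK cell markers 4 were higher and 0 lower (8172 to 9555 and 5966 to 7769 in the same order), with Klre1 at 1.104 ± 0.19 SE and Klrk1 at 2.24 ± 0.41 SE. Both were dim. Klre1 was well above background on 2 of 3 DIO_CR_WR and 3 of 3 DIO arrays. Klrk1 was so on 2 of 3 DIO_CR_WR and 1 of 3 DIO arrays, so the size of its fold change is uncertain. The NK cell list ran from −0.24 (Prf1) to 2.24 (Klrk1), with Ncr1 at 0.29 ± 0.23 SE. Of 5 lymph node stroma markers 2 were higher and 2 lower (28137 to 43971 and 23562 to 26824), with Ccl19 at 0.86 ± 0.15 SE and Chst4 at −1.04 ± 0.18 SE. Of 5 endothelial markers 2 were higher and 0 lower (80178 to 84707 and 69141 to 106564). Cdh5 stood at 0.54 ± 0.19 SE and Pecam1 at 0.41 ± 0.15 SE, against Kdr at −0.32 ± 0.21 SE and Vwf at −0.33 ± 0.26 SE. The median of this list was 0.06.

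Of 8 adipocyte markers, all measured, 2 were lower (674745 to 933895 on DIO_CR_WR arrays and 787152 to 958347 on DIO arrays), with Cfd at −0.83 ± 0.20 SE and Lipe at −0.54 ± 0.18 SE. Skeletal muscle markers were measured too (5 of 5, sums of 407876 to 565952 and 521737 to 698552), 2 of them lower, Ckm at −0.54 ± 0.16 SE and Myh4 at −0.43 ± 0.16 SE. Of 4 epithelial markers 0 passed in either direction (sums of 1247 to 1862 and 1318 to 3064), with Krt14 at −0.46 ± 0.22 SE and Krt5 at −1.12 ± 0.48 SE. Krt5 was well above background on 1 of 3 DIO_CR_WR and 3 of 3 DIO arrays, so that its value compares a measured level with one mostly at the limit of detection.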

How the data were processed

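RNA of 6 inguinal fat samples was measured on 1-colour Agilent arrays, 1 array a sample. The authors deposited an intensity for each spot, from which, per the file headers, Feature Extraction had subtracted a local background without normalizing between arrays (version 10.7.3.1 per the headers, 10.7.1.1 per the submitters' processing notes). The files also hold deposited flags, of type other, for background, saturation and outliers. The log2 intensity was taken here from the deposited values. A further table, holding 18 per-sample columns, was not used.

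Outlier-flagged spots were left out and spots of a probe averaged. Each array's 75th percentile was subtracted, probes well above background on at least 3 of 6 arrays were kept, and the brightest probe stood for a gene. Groups were compared with limma 3.58.1 in R 4.3.3, two-sided, with Benjamini-Hochberg adjustment over 26177 genes at 0.05. The same fit was tested on simulated data. Replicate numbers were not taken as pairs, since arrays with the same number deviated with correlations of −0.01, −0.12 and −0.24 across genes.

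Probe sequences were compared in Python 3.11.15. Members and lists were chosen with earlier results of these data known. Named in full are 18 chosen members, every other member at an unadjusted p under 0.05, and the 2 members of each list with the smallest p. H2-T9, H2-Eb2, H2-DMb2 and other members given only by fold change were picked out after their values were seen. So were Siglech, Zbtb46, Xcr1, Cd79b, March1, Ifngr2, Cd68, Cd4, Cd8b1, Prf1, Ncr1, Kdr, Vwf, Adipoq and Fabp4. Alternatives were other background corrections, normalizations, filters, probe rules and variance models, replicate number, slide or age in the model, slide 1 alone, and leaving out each array.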

Additional observations from a re-analysis of the deposited data

How the results depend on the processing

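The 18 alternatives left several results on small numbers. The count of genes at an adjusted limma p under 0.05 was 7 with spike-in scaling, 63 with a filter for signal on all 6 arrays and 26 with a trended and robust variance, and ran from 0 to 4057 when each array was left out, where DIO replicate 1 gave 4057 and DIO replicate 3 gave 1. The class I count at an unadjusted p, of 34, was 4 with quantile normalization (21.2% of all genes), 4 with the mean of probes (26.5%), 0 with the slide as a block (10.5%) and 1 with slide 1 alone (10.5%), where the lone DIO array is assumed to vary like the others. It ran from 4 to 11 without each array, where the share of all genes ran from 12.2% to 37.4%. The class II count, of 11, was 1 with normexp (23.2% of all genes), a trended variance (27.6%), the slide as a block, slide 1 alone and labelled age as a covariate (24.1%), 6 with spike-in scaling (24.0%), and 0 to 1 without each array. The class I shift was 0.25 with quantile normalization and otherwise 0.02 to 0.19. The class II shift was −0.012 with age as a covariate and otherwise 0.18 to 0.48. The cause of these differences was not tested, and without DIO replicate 1 group and slide cannot be told apart. With the replicate block, the number of genes called stayed at 0, the class I count was 5 and the class II count 0, and it moved no count by over 1.5 times. Signal over background limits H2-M10.2, H2-M1 and H2-Eb2, which were near it, and H2-M11 on DIO_CR_WR replicate 1.

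Signs turned for single members, none of them past the adjusted threshold with all arrays. With normexp and quantile normalization H2-K1 stood at 0.063, H2-D1 at 0.27, B2m at 0.25, Cd1d1 at 0.19, H2-Eb1 at 0.031 and Cd74 at 0.11. Quantile normalization alone gave 0.16 for H2-K1, 0.27 for H2-D1, 0.20 for B2m, 0.24 for Cd1d1 and 0.072 for H2-Eb1. Spike-in scaling gave 0.28 for H2-K1, 0.39 for H2-D1, 0.34 for B2m, 0.12 for Psmb8, 0.22 for Nlrc5, 0.38 for Cd1d1, 0.25 for H2-Eb1, 0.10 for Cd74, 0.0020 for Ciita, 0.023 for H2-M2, 0.063 for Psme2, 0.058 for H2-T24 and 0.11 for H2-Ke6. The mean of probes gave 0.71 for H2-M2. With the slide as a block, and with slide 1 alone, H2-K1 stood at 0.011, Tap1 at −0.29, Psmb9 at −0.031, Cd1d1 at 0.16, Mr1 at −0.15, H2-Eb1 at 0.024 and Cd74 at 0.11. Age as a covariate gave −0.76 for H2-Aa, −0.42 for H2-Ab1, −0.011 for H2-DMa, −1.003 for H2-DMb1 and −0.38 for H2-Ob. Labelled ages do not overlap between the groups, so these values extrapolate a slope within groups, and the labels themselves are in doubt.

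Leaving out each array moved H2-DMb1 between −0.26 and 0.30, H2-Ob between −0.092 and 0.36, Psmb9 between −0.11 and 0.23, Cd1d1 between −0.31 and 0.026, B2m between −0.26 and 0.023, H2-D1 between −0.31 and 0.0068, H2-Aa between −0.091 and 0.29 and H2-Ab1 between −0.025 and 0.32. H2-M3, H2-M9, H2-T3 and H2-Oa kept their sign in all alternatives (0.37 to 1.85, 0.68 to 2.34, −1.05 to −0.12 and 0.11 to 1.38), which refit the same arrays. H2-M10.2 was negative in the 17 that measured it (−1.08 to −0.23), from DIO_CR_WR signals mostly at the limit of detection. On DIO_CR_WR replicate 1 the lowest signal well above background was 296, above the H2-M10.2 signals of 170 to 200 on DIO arrays. A lower level could not be measured there.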
